A study of Mus musculus with 8 samples.

Results

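A set of 10 genes of leukocyte recruitment was followed in mouse liver, as 10 of the 12393 genes that an Affymetrix mouse array names by a single symbol, and 18 of its 22626 probe sets that are not controls. They are the chemokine genes Cxcl1, Cxcl9, Cxcl10, Cxcl12, Ccl2, Ccl6 and Ccl9, the adhesion molecule genes Vcam1 and Icam1, and Nfkbia, which encodes the NF-κB inhibitor IκBα. A probe set, a group of short probes read as 1 value, was taken when its symbol in the platform annotation was 1 of these 10 genes, whatever its level. All 18 probe sets also passed the filter on low values and were tested. The array measured total liver RNA, and 8 arrays in 4 groups of 2 were read.

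Every mouse lacked the LDL receptor (C57B6 background), was 8 months old and had been on a Western diet for 12 weeks. An adeno-associated virus (AAV2.8), given when the mice were 10 weeks old, carried its cargo behind the human thyroxine binding globulin promoter, which is active in liver. Control mice received green fluorescent protein (GFP) as cargo, and the others received human LXRα, a liver X receptor encoded by NR1H3. For 3 days the mice were then injected intraperitoneally with vehicle or with 5 mg/kg of T0901317, a synthetic agonist of both liver X receptors. The GFP groups and the LXRα groups are each named here with their injection, vehicle or T0901317, and the series title places them in a study of hepatic LXRα and lipid metabolism on such a diet. Each sample is labelled as coming from a mouse, but no label says that the 2 samples of a group came from different litters or were prepared apart, so the p-values measure only the spread between these samples. The probe set for mouse Nr1h3 (1450444_a_at) read 128 and 170.0 in GFP vehicle, 75.8 and 98.0 in GFP T0901317, 183 and 218 in LXRα vehicle and 163 and 62.6 in LXRα T0901317. It was designed for the mouse transcript and is no check of the human transgene.

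Chemokines are small secreted proteins that guide leukocytes along gradients through G protein-coupled receptors, and endothelial adhesion molecules hold the arriving cells on the vessel wall. Many of these genes are switched on by NF-κB, a dimeric transcription factor that IκBα holds in the cytoplasm, and Nfkbia is itself an NF-κB target, which closes a feedback loop. In liver, Kupffer cells, sinusoidal endothelium, stellate cells and hepatocytes can all make chemokines, and liver X receptors are known from macrophages to dampen NF-κB-driven inflammatory genes. In bulk RNA, fewer cells of a type and less RNA per cell cannot be told apart.

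The promoter windows show which members carry recognisable NF-κB motifs close to the gene start. RefSeq sequence (GRCm38.p6) of the 250 bases before the start was at hand for 8 of the 10 genes, Cxcl1, Cxcl9, Cxcl10, Cxcl12, Ccl6, Ccl9, Icam1 and Nfkbia. Both strands were searched for a κB core motif (GGG, any 2 bases, TTTCC), for the published κB consensus with its purine and pyrimidine positions, and for the core of the interferon-stimulated response element (GAAA, any 2 bases, GAAA). The first and second patterns can match the same bases, but neither contains the other. The κB core was found in 3 of the 8 windows and in 464 of all 32851 RefSeq windows of this length (1.41%). For the κB consensus the counts were 4 of 8 and 1281 of 32851 (3.9%), and for the interferon core 1 of 8 and 978 of 32851 (2.98%). The 4 windows that held a match are printed 5′ to 3′ on the gene's strand, with the matched bases in capitals. They lie at chr5:90890995-90891244 (plus strand) for Cxcl1, chr5:92348890-92349139 (minus strand) for Cxcl10, chr11:83578637-83578886 (minus strand) for Ccl9 and chr12:55492648-55492897 (minus strand) for Nfkbia.
Cxcl1: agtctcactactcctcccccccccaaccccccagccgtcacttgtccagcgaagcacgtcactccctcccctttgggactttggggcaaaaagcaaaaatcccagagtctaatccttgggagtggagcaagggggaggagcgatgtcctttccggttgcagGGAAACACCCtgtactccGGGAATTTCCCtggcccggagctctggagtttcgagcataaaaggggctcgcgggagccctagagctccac
Cxcl10: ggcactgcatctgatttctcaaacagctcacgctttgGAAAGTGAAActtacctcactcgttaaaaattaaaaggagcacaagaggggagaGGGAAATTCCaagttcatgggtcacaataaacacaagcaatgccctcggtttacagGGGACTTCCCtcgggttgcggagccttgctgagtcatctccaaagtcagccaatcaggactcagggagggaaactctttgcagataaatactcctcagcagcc
Ccl9: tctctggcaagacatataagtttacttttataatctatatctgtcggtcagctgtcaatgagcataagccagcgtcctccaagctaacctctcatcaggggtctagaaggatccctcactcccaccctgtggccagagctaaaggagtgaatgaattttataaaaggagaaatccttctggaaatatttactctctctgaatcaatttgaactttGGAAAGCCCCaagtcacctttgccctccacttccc
Nfkbia: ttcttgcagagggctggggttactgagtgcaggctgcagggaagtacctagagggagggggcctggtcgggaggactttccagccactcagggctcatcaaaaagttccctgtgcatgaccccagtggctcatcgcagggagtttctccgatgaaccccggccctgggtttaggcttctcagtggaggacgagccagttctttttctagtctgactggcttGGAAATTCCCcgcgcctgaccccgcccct

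In the Cxcl1 window, counted back from the gene start, a κB core on the minus strand covers bases -89 to -80. A stretch read by both κB patterns covers -71 to -62, and a κB consensus match on the minus strand covers -70 to -61. The Cxcl10 window holds κB consensus matches at -159 to -150 and -103 to -94 and the interferon core at -213 to -204. Ccl9 has 1 stretch read by both κB patterns at -35 to -26, and Nfkbia has 1 at -29 to -20, both on the minus strand. No pattern was found in the windows of Cxcl9, Cxcl12, Ccl6 and Icam1, which says only that these letters are not in these 250 bases. A match is a stretch of letters and not a measured binding site.

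**Figure D1:**
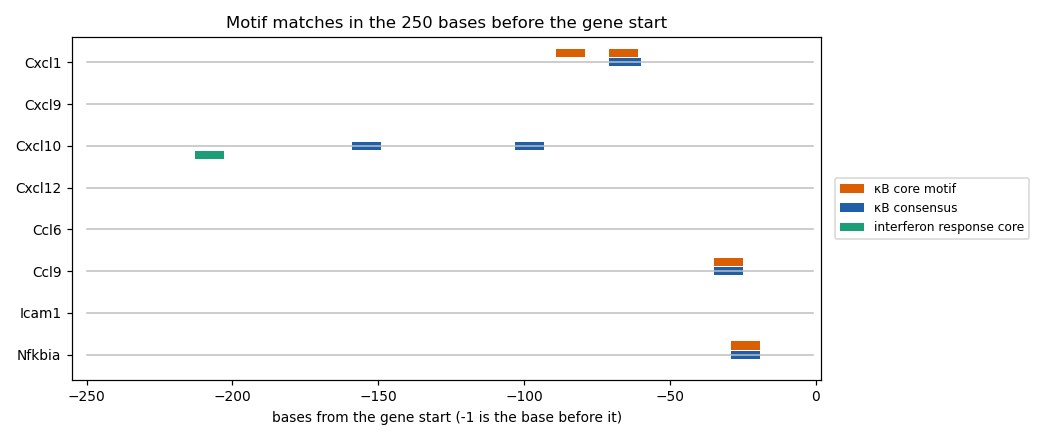
Position of each motif match, in bases from the gene start, in the 8 promoter windows of 250 bases; orange is the κB core motif, blue the κB consensus and green the interferon response core. Cxcl1, Cxcl10, Ccl9 and Nfkbia hold matches and the other 4 windows hold none.

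Signal was read against the arrays' own background, set on each array at the 90th percentile of 76 probe sets for genes of other organs, such as brain, muscle and testis. This limit lay between 17.3 and 27.0 units of intensity. None of the 18 probe sets was near background throughout, and 15 lay above the limit on all 8 arrays. The other 3, the Cxcl9 probe set and both Ccl9 probe sets, lay just under it on 1 array, LXRα vehicle replicate 2, at 0.960, 0.962 and 0.984 times the limit. Of those above it, Ccl2 and Icam1 stayed closest, Ccl2 at 1.35 to 2.10 times the limit and Icam1 at 1.30 to 3.63 times. Ccl6 1417266_at ranged more widely, but came down to 1.29 times the limit on LXRα vehicle replicate 2.

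Array medians of log2 intensity lay between 4.39 and 4.53, and replicates of a group correlated at r = 0.968 to 0.986 over all probe sets. The LXRα T0901317 pair was the farthest apart, with a median absolute log2 difference of 0.213, against 0.0906 in GFP vehicle. The 3′ to 5′ intensity ratio of the β-actin control probe sets, a measure of RNA integrity and labelling, was 2.08 to 3.08 on the 4 vehicle arrays. On the T0901317 arrays it was 7.56 and 11.04 with GFP and 2.75 and 36.3 with LXRα, and the Gapdh ratio ran from 1.06 to 1.16 and from 1.27 to 19.7 in the same order of treatments. An exact two-sided permutation test over the 70 splits of 8 arrays gave p = 0.0571 for β-actin and p = 0.0286, the smallest possible, for Gapdh, both 0.0571 after Benjamini-Hochberg adjustment. The same ratio for dap, a bacterial control, was 1.67 to 2.20 on the vehicle arrays. On the T0901317 arrays it was 4.60 and 9.97 with GFP and 2.86 and 21.8 with LXRα. Whether RNA integrity or labelling raised these ratios was not tested. Of all probe sets, 3781 (16.7%) held an identical value on at least 2 arrays, among them 3 of the 18 described here.

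Hepatocyte genes marked the samples as liver, since all 13 measured hepatocyte genes were above background on every array. Of 15 measured lymphocyte genes 8 to 12 were at or below background on each array, and of 9 neutrophil genes 5 to 7 were. Summed intensity over the neutrophil genes was 669 and 1303 in GFP vehicle, 1655 and 2606 in GFP T0901317, 645 and 2111 in LXRα vehicle and 355 and 801 in LXRα T0901317. Most of each sum was Lcn2, the lipocalin of neutrophil granules and of the acute phase response, which read 535 and 993, 1541 and 2073, 532 and 1948, and 254 and 635 in that order of groups. S100a8, a calgranulin of neutrophils, read 18.9 and 75.3, 20.4 and 169, 16.005 and 24.7, and 14.3 and 35.5 in the same order. It was at or below background on 3 arrays. Like Lcn2 it was higher on replicate 2 in each group and highest on GFP T0901317 replicate 2. On LXRα vehicle replicate 2, where Lcn2 read 1948, S100a8 lay close to the background limit of 24.0. S100a9 of the same list was above background on all 8 arrays. It read 33.2 on LXRα vehicle replicate 1 and 69.2 on replicate 2. On replicate 2, 5 of the 9 neutrophil genes were at or below background.

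**Figure D2:**
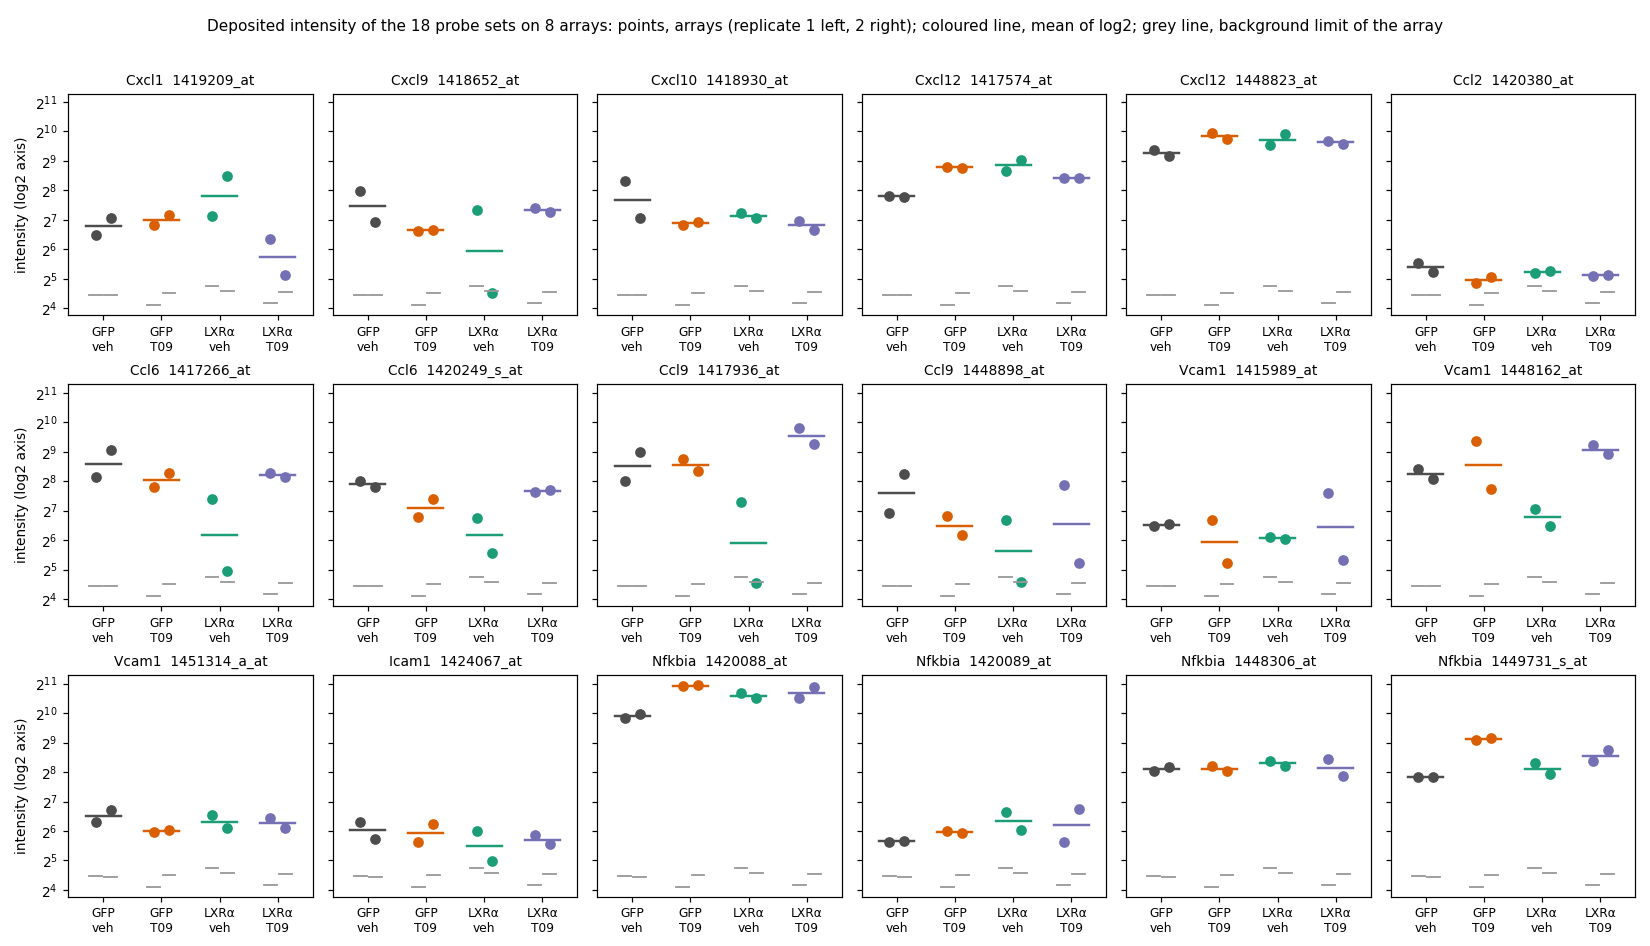
Deposited intensity on a log2 axis of each of the 18 probe sets in the 4 groups; points are arrays (replicate 1 left, 2 right), coloured lines are means of log2 and grey lines are the background limit of that array. The Cxcl9 and Ccl9 points of LXRα vehicle replicate 2 sit at the grey line, and all Cxcl12 points lie at 10.0 times the limit or higher.

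Among the chemokines of the CXC family, Cxcl12 was lowest in GFP vehicle livers by both of its probe sets. CXCL12 is the ligand of CXCR4 and holds haematopoietic cells and lymphocytes in their niches. Probe set 1417574_at read 227 and 219.9 in GFP vehicle, 445 and 433 in GFP T0901317, 405 and 524 in LXRα vehicle and 341 on both LXRα T0901317 arrays. GFP vehicle was the lowest group and overlapped with none of the others, and LXRα T0901317 lay apart between it and the remaining pair, which overlapped with each other. On the log2 scale the group means were 7.80 ± 0.03, 8.78 ± 0.03, 8.85 ± 0.26 and 8.41 (SD, n = 2 each). The last group has an SD of 0, because the deposited value, 340.602, was identical on both arrays.

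Cxcl12 was 2.06-fold higher in LXRα vehicle than in GFP vehicle by this probe set, a log2 difference of 1.04 (SE 0.22, unadjusted p = 0.00226, limma adjusted p = 0.580). With T0901317 it was 1.97-fold higher in GFP livers (0.98, SE 0.22, unadjusted p = 0.00326, adjusted p = 0.189). In LXRα livers the T0901317 difference was -0.44 (95% interval -0.96 to 0.09, adjusted p = 0.426). None of these passed the threshold of an adjusted p under 0.05. The first and second differences share the GFP vehicle arrays, so they are not independent. When the fit included the β-actin ratio, the difference with T0901317 in GFP livers was 0.97. Such a fit takes its slope from differences within groups, here mostly from the LXRα T0901317 pair with ratios of 2.75 and 36.3. It applies that slope to all groups, so here and below it is no separate check of RNA quality.

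The other Cxcl12 probe set, 1448823_at, read 655 and 571 in GFP vehicle, 983 and 857 in GFP T0901317, 742 and 953 in LXRα vehicle and 812 and 768 in LXRα T0901317. Here too GFP vehicle lay below the other groups without overlap, while these overlapped with their neighbours. Its differences were smaller, 0.46 for LXRα vehicle against GFP vehicle and 0.59 for T0901317 in GFP livers (unadjusted p = 0.0400, adjusted p = 0.355). The probe sets had r = 0.916 with each other over the 8 arrays.

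Cxcl1 encodes a neutrophil attractant that acts through CXCR2. Its probe set 1419209_at read 90.02 and 135 in GFP vehicle, 114 and 145 in GFP T0901317, 140.3 and 361 in LXRα vehicle and 80.9 and 34.7 in LXRα T0901317. LXRα T0901317 was lowest and did not overlap with GFP vehicle, its neighbour in order. GFP vehicle, GFP T0901317 and LXRα vehicle followed, each overlapping with the next. Means of log2 were 6.78 ± 0.41, 7.01 ± 0.24, 7.81 ± 0.96 and 5.73 ± 0.86 (SD, n = 2 each).

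The T0901317 difference in LXRα livers was -2.09 (SE 0.56, 95% interval -3.40 to -0.77), a level 4.25-fold lower, at unadjusted p = 0.00727 and limma adjusted p = 0.223. The lowest Cxcl1 value lay on LXRα T0901317 replicate 2, the array with the β-actin ratio of 36.3, and the highest on LXRα vehicle replicate 2. Without the first of these the difference was -1.48, and without the second it was -1.40. When the fit included the β-actin ratio it was -1.56. In GFP livers the T0901317 difference was 0.22 (95% interval -1.09 to 1.54).

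CXCL9 and CXCL10 are interferon-induced ligands of CXCR3, which draws activated T cells and natural killer cells. The Cxcl9 probe set 1418652_at read 251 and 123 in GFP vehicle, 99.5 and 100.5 in GFP T0901317, 162 and 23.1 in LXRα vehicle and 169.9 and 152 in LXRα T0901317. The replicates of LXRα vehicle differed most, with 1 near its group neighbours and the other at background. In order of level, LXRα vehicle and GFP T0901317 overlapped, LXRα T0901317 lay above GFP T0901317 without overlap, and GFP vehicle overlapped with LXRα T0901317. LXRα vehicle against GFP vehicle gave -1.52 (SE 0.83, limma adjusted p = 0.963), and -0.12 without LXRα vehicle replicate 2. The T0901317 difference in LXRα livers was 1.40 (adjusted p = 0.464) with that array and -0.01 without it.

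The Cxcl10 probe set 1418930_at read 318 and 132 in GFP vehicle, 114 and 122 in GFP T0901317, 151 and 132 in LXRα vehicle and 124 and 101 in LXRα T0901317. Apart from the first GFP vehicle array, all values lay between 101 and 151. Both vehicle groups lay above both T0901317 groups, by -0.57 on average over the transgenes (T0901317 minus vehicle, 95% interval -1.24 to 0.10, limma adjusted p = 0.255). GFP vehicle replicate 2 and LXRα vehicle replicate 2 held the identical value 132.341.

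Among the CC chemokines, Ccl2, which recruits monocytes through CCR2, stayed within 2.10 times the background limit. Its probe set 1420380_at read 46.1 and 37.9 in GFP vehicle, 28.9 and 33.1 in GFP T0901317, 36.5 and 38.9 in LXRα vehicle and 34.3 and 34.9 in LXRα T0901317. All 8 values lay within 1.59-fold of each other. Both vehicle groups overlapped and both T0901317 groups lay under them. The T0901317 difference was -0.43 in GFP livers (SE 0.18, unadjusted p = 0.0449, limma adjusted p = 0.370) and -0.12 in LXRα livers (95% interval -0.54 to 0.30).

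CCL6 and CCL9 are rodent chemokines made mainly by macrophages and other myeloid cells, and both act through CCR1. Ccl6 probe set 1417266_at read 283 and 532 in GFP vehicle, 224 and 308 in GFP T0901317, 168 and 31.0 in LXRα vehicle and 310.0 and 284 in LXRα T0901317. LXRα vehicle lay below all other groups, and these overlapped with their neighbours. Ccl6 probe set 1420249_s_at read 255 and 223, 111 and 170.2, 107 and 47.7, and 198 and 209 in the same order of groups. Here no group overlapped with another, and the order from low to high was LXRα vehicle, GFP T0901317, LXRα T0901317 and GFP vehicle. The suffix _s_at marks a probe set that can detect transcripts of more than 1 gene, so this reading is less certain, but it had r = 0.920 with the first over the 8 arrays.

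Ccl6 in LXRα vehicle was 5.38-fold lower than in GFP vehicle by 1417266_at (log2 difference -2.43, SE 0.74, limma adjusted p = 0.843). By 1420249_s_at it was 3.33-fold lower (-1.73, SE 0.41, adjusted p = 0.647). The T0901317 differences in LXRα livers were 2.04 (SE 0.74, adjusted p = 0.331) and 1.51 (SE 0.41, adjusted p = 0.226), and in GFP livers -0.56 and -0.79. Without LXRα vehicle replicate 2, Ccl6 in LXRα vehicle stood at -1.21 and -1.15 against GFP vehicle, and its T0901317 differences in LXRα livers were 0.82 and 0.92. Without LXRα vehicle replicate 1 the values were -3.65 and -2.32, and 3.26 (adjusted p = 0.0926) and 2.09. Both comparisons share the LXRα vehicle arrays, which enter with opposite signs.

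Ccl9 ranged by probe set 1417936_at from just under the background limit on 1 array to 893 on another. It read 256 and 514 in GFP vehicle, 436 and 326 in GFP T0901317, 157 and 23.1 in LXRα vehicle and 893 and 615 in LXRα T0901317. LXRα vehicle lay below and LXRα T0901317 above the GFP groups, which overlapped with each other. The second probe set, 1448898_at, read 121 and 307, 112 and 72.0, 103 and 23.7, and 233 and 37.4 in the same order. Its LXRα T0901317 arrays lay 1 on each side of the GFP T0901317 values, and the 2 probe sets had r = 0.650 with each other.

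With T0901317, Ccl9 in LXRα livers was 12.3-fold higher by 1417936_at (3.62, SE 0.84, 95% interval 1.64 to 5.60), at unadjusted p = 0.00350 and limma adjusted p = 0.187. By 1448898_at the difference was 0.92 (95% interval -1.47 to 3.31). Without LXRα vehicle replicate 2, the array on which both probe sets lay just under the background limit, the differences were 2.24 and -0.14. Without LXRα vehicle replicate 1 they were 5.00 (adjusted p = 0.0843) and 1.98. The low LXRα T0901317 value of 1448898_at, 37.4, lay on replicate 2, the array with the β-actin ratio of 36.3. Without that array its difference was 2.24 and without LXRα T0901317 replicate 1 it was -0.40, against 3.89 and 3.35 for 1417936_at. When the fit included the β-actin ratio, the difference by 1448898_at was 2.30. LXRα vehicle against GFP vehicle gave -2.59 (SE 0.84, adjusted p = 0.870) and -1.96, and -1.21 and -0.90 without replicate 2. In GFP livers the T0901317 difference by 1417936_at was 0.05 (95% interval -1.92 to 2.03).

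Macrophage marker genes were low on the same array. Summed over the 20 measured genes of 21 listed, such as Cd68, Adgre1, Clec4f and C1qa, their intensity was 11390 and 13660 in GFP vehicle and 7419 and 14987 in GFP T0901317. It was 8000 and 3016 in LXRα vehicle and 9468 and 8451 in LXRα T0901317. On LXRα vehicle replicate 2, 6 of the 20 genes were at or below background, against 1 or 2 on the other arrays, and none was at 0. Cd163 was at or below background on all 8 arrays. All 19 tested genes of the list were lower in LXRα vehicle than in GFP vehicle, with a median of -1.23 against 0.05 over all genes, 8 of them at an unadjusted p under 0.05 (2.89% of all probe sets were lower by that rule) and none called. With T0901317 in LXRα livers 17 of 19 were higher, where 44.4% of all probe sets were, with a median of 0.98 against -0.03 over all genes. Summed intensity of the hepatocyte genes was highest on the LXRα vehicle arrays. It was 150719 and 160533 in GFP vehicle, 147346 and 151735 in GFP T0901317, 180974 and 183325 in LXRα vehicle and 161960 and 134955 in LXRα T0901317. With T0901317 in LXRα livers 12 of the 13 were lower, 4 at an unadjusted p under 0.05 and none called. Of all probe sets 5.30% were lower by that rule. The median of the 13 was -0.41 against -0.03 over all genes. The part of these marker levels in the Ccl6, Ccl9 and Cxcl9 differences was not tested.

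**Figure D3:**
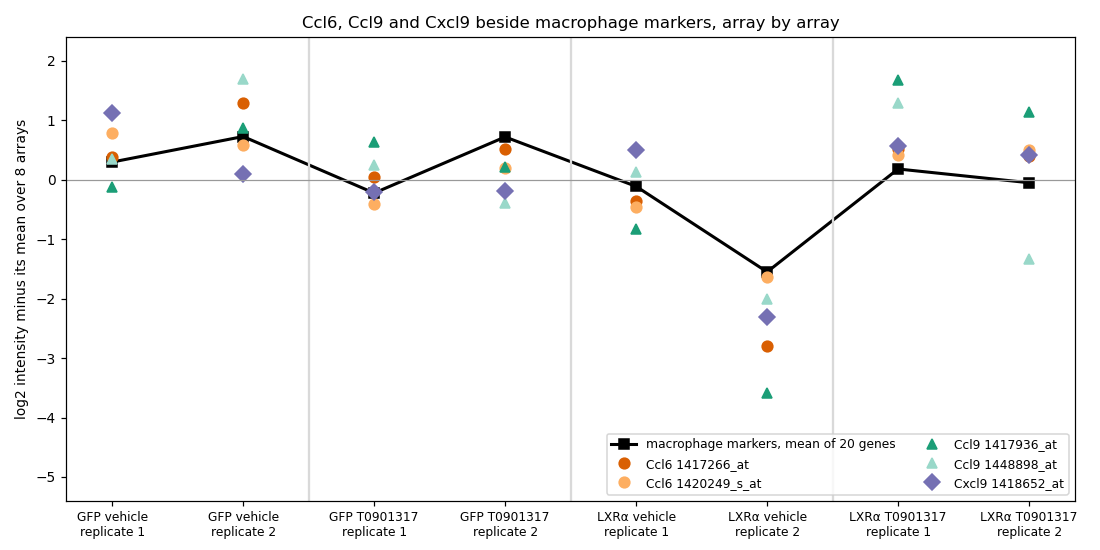
Log2 intensity minus its mean over the 8 arrays for both Ccl6 and both Ccl9 probe sets, Cxcl9 and the mean of 20 macrophage marker genes, array by array. All of them are lowest on LXRα vehicle replicate 2, where summed marker intensity was 3016.

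Of the adhesion molecules, VCAM1, an endothelial ligand of leukocyte integrins, was read by 3 probe sets that did not follow each other. Vcam1 probe set 1448162_at read 343 and 267 in GFP vehicle, 656 and 211 in GFP T0901317, 134 and 90.02 in LXRα vehicle and 599 and 482 in LXRα T0901317. Both LXRα vehicle values lay below all others, and LXRα T0901317 lay above both vehicle groups. The GFP T0901317 replicates lay 1 above and 1 below all GFP vehicle and LXRα T0901317 values, so that the 3 upper groups overlapped with their neighbours.

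By 1448162_at the T0901317 difference for Vcam1 in LXRα livers was 2.29 (SE 0.52, 95% interval 1.06 to 3.53), a level 4.89-fold higher, at unadjusted p = 0.00324 and limma adjusted p = 0.185. LXRα vehicle against GFP vehicle gave -1.46 (SE 0.52, unadjusted p = 0.0265, adjusted p = 0.881). Leaving out LXRα vehicle replicate 2 gave 2.00 and -1.18, and leaving out replicate 1 gave 2.58 and -1.75. When the fit included the β-actin ratio the first was 2.57. In GFP livers the T0901317 difference was 0.30 (95% interval -0.94 to 1.53).

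Vcam1 probe set 1415989_at read 89.5 and 92.9, 102 and 37.2, 69.2 and 65.3, and 192 and 40.3 in the same order of groups as for 1448162_at. Within each T0901317 group its replicates lay 1 above and 1 below all vehicle values, and the low ones, 37.2 and 40.3, were on the arrays with β-actin ratios of 11.04 and 36.3. Probe set 1451314_a_at, whose suffix marks alternative transcripts of 1 gene, read 78.7 and 105, 62.7 and 65.7, 92.1 and 68.5, and 87.1 and 67.9. It ranged over 1.68-fold, against 7.28-fold for 1448162_at. The T0901317 differences in LXRα livers were 0.39 (95% interval -1.37 to 2.15) and -0.05 (95% interval -0.66 to 0.56). For 1415989_at the direction depended on 1 array: the difference was 1.52 without LXRα T0901317 replicate 2 and -0.74 without replicate 1, and it was 1.57 when the fit included the β-actin ratio. In GFP livers its T0901317 difference was -0.56, and 0.79 with that ratio in the fit. Over the 8 arrays 1448162_at had r = 0.408 with 1415989_at and r = -0.125 with 1451314_a_at.

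Endothelium and stellate cells can both carry VCAM1, and their markers were read beside it. Summed over 12 stellate cell and fibroblast genes, such as Col1a1, Dcn and Lrat, intensity was 3473 and 2101 in GFP vehicle, 4036 and 2829 in GFP T0901317, 1418 and 1136 in LXRα vehicle and 3387 and 4067 in LXRα T0901317. LXRα vehicle was the lowest group here as well. Of 11 tested genes of the list 10 were lower than in GFP vehicle, 4 at an unadjusted p under 0.05 (2.89% of all probe sets) and none called. Much of the sum was Col3a1 and Dcn. Col3a1 read 1421 and 600 in GFP vehicle and 215 and 146 in LXRα vehicle. Lrat, at or below background on 3 arrays, read 24.5 and 21.9 in GFP vehicle and 22.5 and 18.1 in LXRα vehicle. Des read 28.4 and 28.0, and 28.0 and 29.3, in these groups. Summed over 16 endothelial genes, intensity was 1735 and 1527 in GFP vehicle, 1923 and 1893 in GFP T0901317, 1712 and 1142 in LXRα vehicle and 2017 and 1792 in LXRα T0901317. Of these endothelial genes Lyve1, a hyaluronan receptor of sinusoidal and lymphatic endothelium, was called higher with T0901317 over both transgenes (2.05, SE 0.29, limma adjusted p = 0.0489). With 1 array left out it was called in 1 of 8 cases, without LXRα T0901317 replicate 1, and its difference ran from 1.81 to 2.29 with an adjusted p of 0.0294 to 0.180. It was also not called with quantile normalization, no filter, the replicate block or the β-actin ratio in the fit (adjusted p = 0.0656, 0.122, 0.0658 and 0.114). The part of these marker levels in the Vcam1 difference was not tested.

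Icam1 encodes the ligand of the leukocyte integrin LFA1 and is made by endothelium, Kupffer cells and activated hepatocytes. Its probe set 1424067_at read 79.8 and 53.2 in GFP vehicle, 49.9 and 75.1 in GFP T0901317, 64.3 and 31.3 in LXRα vehicle and 57.7 and 46.9 in LXRα T0901317. Every group overlapped with its neighbours in order. Its differences ran from -0.54 (LXRα vehicle against GFP vehicle, 95% interval -1.49 to 0.41, limma adjusted p = 0.963) to 0.21 (T0901317 in LXRα livers, 95% interval -0.74 to 1.17) over the 4 comparisons of single groups.

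Nfkbia, the gene of the NF-κB inhibitor, had the smallest adjusted p of all members. Probe set 1449731_s_at read 227.4 and 227.1 in GFP vehicle, 543 and 569 in GFP T0901317, 317 and 243 in LXRα vehicle and 334 and 426 in LXRα T0901317. No group overlapped with another, and all 4 T0901317 arrays lay above all 4 vehicle arrays. Means of log2 were 7.83 ± 0.0011, 9.12 ± 0.05, 8.12 ± 0.27 and 8.56 ± 0.25 (SD, n = 2 each). As for Ccl6, the suffix _s_at marks a probe set that can also detect transcripts of other genes, so this reading is less certain.

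By this probe set Nfkbia was 2.45-fold higher with T0901317 in GFP livers (1.29, SE 0.24, 95% interval 0.72 to 1.86), at unadjusted p = 0.00113 and limma adjusted p = 0.158. In LXRα livers the difference was 0.44 (95% interval -0.13 to 1.02, adjusted p = 0.442). Averaged over the transgenes it was 0.87 (SE 0.17, 95% interval 0.46 to 1.27, unadjusted p = 0.00151, adjusted p = 0.0751), which missed the threshold. Without LXRα T0901317 replicate 1 the averaged difference was 0.95 with an adjusted p of 0.0294, and over all alternatives that adjusted p ran from 0.0294 to 0.208. The arrays with the highest β-actin ratios are the GFP T0901317 pair and LXRα T0901317 replicate 2. When the fit included that ratio, the difference was 1.11 (adjusted p = 0.235) in GFP livers and 0.69 (adjusted p = 0.137) on average. The slope of that fit comes mostly from the LXRα T0901317 pair, so in GFP livers it is carried over from other arrays.

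Nfkbia probe set 1420088_at read 909 and 1014 in GFP vehicle, 1928 and 1966 in GFP T0901317, 1654 and 1445 in LXRα vehicle and 1445 and 1887 in LXRα T0901317. GFP vehicle was lowest and GFP T0901317 highest, neither overlapping with the LXRα groups, which overlapped with each other. LXRα vehicle replicate 2 and LXRα T0901317 replicate 1 held the identical value 1444.69. Its difference with T0901317 in GFP livers was 1.02 (SE 0.23, unadjusted p = 0.00282, limma adjusted p = 0.189), and for LXRα vehicle against GFP vehicle it was 0.69 (SE 0.23, unadjusted p = 0.0190, adjusted p = 0.872). In LXRα livers T0901317 gave 0.10 (95% interval -0.44 to 0.63). Probe sets 1420088_at and 1449731_s_at had r = 0.877 with each other.

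The other Nfkbia probe sets did not share this pattern. Probe set 1448306_at read 263 and 288, 296 and 261, 330.0 and 298, and 346 and 233 in the order of groups given for 1420088_at, and its groups overlapped with their neighbours. Its T0901317 difference in GFP livers was 0.02 (95% interval -0.60 to 0.63), and its r with 1449731_s_at was -0.217. Probe set 1420089_at read 49.1 and 51.0, 64.6 and 61.2, 100.5 and 64.9, and 48.9 and 109. GFP vehicle was its lowest group, and T0901317 in GFP livers gave 0.33 (95% interval -0.60 to 1.26). Which transcript ends the 4 probe sets read was not analysed here, so a difference of Nfkbia is stated per probe set.

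Across the 18 probe sets no difference was called in any of the 7 comparisons at a limma adjusted p under 0.05. Few probe sets of the array passed this threshold at all, with shares of 0.00631% for LXRα vehicle against GFP vehicle, 0.00% for T0901317 in GFP livers, 0.0253% for T0901317 in LXRα livers and 0.00% for LXRα against GFP under T0901317. The share was 0.568% for T0901317 averaged over the transgenes, 0.00631% for LXRα averaged over the treatments and 0.00631% for the interaction, the difference between the T0901317 differences. The smallest adjusted p among the members was 0.580, 0.158, 0.185, 1, 0.0751, 0.999 and 0.906 in this order.

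In LXRα vehicle against GFP vehicle, 2 probe sets were higher at an unadjusted p under 0.05 (Cxcl12 1417574_at and Nfkbia 1420088_at) and 4 were lower (both of Ccl6, Ccl9 1417936_at and Vcam1 1448162_at). Of all tested probe sets 2.27% were higher and 2.89% lower by that rule. The arrays of the groups did not overlap for 13 members, in either direction, as for 44.4% of all probe sets. The median difference of the 18 was -0.32, with 7 above and 11 below 0, against 0.05 for all probe sets.

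T0901317 in GFP livers gave 4 higher probe sets at an unadjusted p under 0.05, both of Cxcl12 and 2 of Nfkbia (1420088_at and 1449731_s_at). It gave 1 lower, that of Ccl2. The shares over all probe sets were 8.50% and 4.65%. Groups stood apart, in either direction, for 11 of these probe sets (8 genes), and for 58.3% of all probe sets. The median difference was -0.04, with 9 probe sets on each side of 0, against -0.05 for all probe sets.

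T0901317 in LXRα livers gave 4 higher probe sets by the same rule (both of Ccl6, Ccl9 1417936_at and Vcam1 1448162_at). It gave 1 lower, that of Cxcl1. The shares over all probe sets were 7.88% and 5.30%. Groups stood apart for 9 of these probe sets (8 genes), and for 48.4% of all probe sets. The median was 0.15 against -0.05. This comparison shares its LXRα vehicle arrays, with the opposite sign, with that of LXRα vehicle against GFP vehicle.

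**Figure D4:**
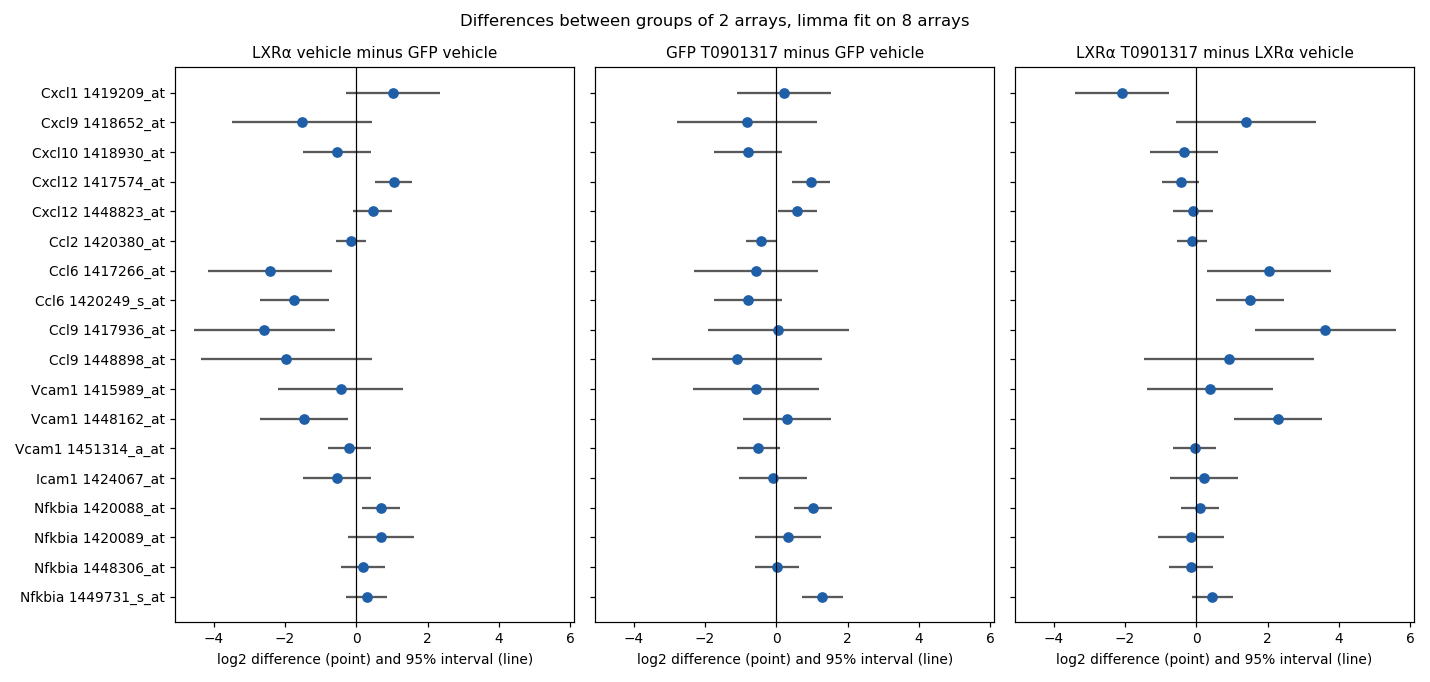
Log2 difference (point) with its 95% interval (line) of the 18 probe sets in 3 comparisons, from the limma fit on 8 arrays. The Ccl6, Ccl9 1417936_at and Vcam1 1448162_at points lie below 0 in the left panel and above it in the right panel, and the Cxcl12 and Nfkbia points with the narrowest intervals lie above 0 in the middle panel.

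Under T0901317, LXRα and GFP livers differed by an unadjusted p under 0.05 in 0 of 18 probe sets, where 2.24% of all probe sets did. The arrays of these groups stood apart for 10 of the 18 probe sets (8 genes), and for 19.3% of all probe sets. Cxcl1 (-1.28, 95% interval -2.60 to 0.04) and Nfkbia 1449731_s_at (-0.56, 95% interval -1.13 to 0.02) came closest, both with a limma adjusted p of 1. The intervals of the others of the 18 were too wide to show that the groups were alike, for example -0.70 to 1.76 for Vcam1 1448162_at. Averaged over the treatments, LXRα against GFP also gave 0 of 18 at that level, against 2.66% of all, with a median of -0.13 against 0.03.

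T0901317 averaged over both transgenes gave 4 higher members at an unadjusted p under 0.05 and 1 lower, against 12.7% and 10.5% of all probe sets. The higher ones were Nfkbia 1449731_s_at and 1420088_at (0.56, limma adjusted p = 0.130), Vcam1 1448162_at (1.29, adjusted p = 0.129) and Ccl9 1417936_at (1.84, adjusted p = 0.153). Cxcl1 was the lower one (-0.93, unadjusted p = 0.04999, adjusted p = 0.215). Only Nfkbia 1449731_s_at was higher on all 4 T0901317 arrays than on all 4 vehicle arrays, as 8.20% of all probe sets were, and Cxcl10 and Ccl2 were lower on all 4, as 8.44% were.

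The interaction was at an unadjusted p under 0.05 for 8 of the 18 probe sets, where 4.77% of all probe sets were. These probe sets belong to 6 genes, and the members were chosen with earlier results of these data known, so the count is not one of independent members. Of these 8, 4 had the higher T0901317 difference in LXRα livers, both of Ccl6 (2.60 and 2.30), Ccl9 1417936_at (3.57) and Vcam1 1448162_at (1.99). The other 4 had the higher one in GFP livers, Cxcl1 (-2.31), Cxcl12 1417574_at (-1.41) and Nfkbia 1420088_at and 1449731_s_at (-0.92 and -0.85). Over all probe sets 2.34% had the higher difference in LXRα livers at that level and 2.42% the lower. None was called, and limma adjusted p lay between 0.906 and 1.000. The interaction rests on all 8 arrays, and without LXRα vehicle replicate 2 the values were 1.38 and 1.71 for Ccl6, 2.18 for Ccl9, 1.71 for Vcam1, -1.63 for Cxcl1 and -1.22 for Cxcl12. For 2 probe sets, Cxcl12 1417574_at and Ccl6 1420249_s_at, T0901317 and vehicle arrays stood apart in both transgenes but in opposite directions, as for 2.93% of all probe sets. By the other probe set of each gene the arrays overlapped in LXRα livers (Cxcl12) or in GFP livers (Ccl6).

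Other genes of the same pathways, from lists set by family membership, gave no called gene in any comparison. Of 29 other chemokine genes 26 were on the array and 16 bright enough to test. Cxcl16, a transmembrane chemokine that also takes up oxidised lipoprotein, was -0.97 in LXRα vehicle against GFP vehicle (SE 0.20, unadjusted p = 0.00194, limma adjusted p = 0.580) and 0.71 with T0901317 in LXRα livers (adjusted p = 0.241). It was the only one of the 16 with an unadjusted p under 0.05 in these comparisons, and the list's medians were 0.07 and -0.16. With T0901317 in GFP livers 3 of the 16 were higher and 13 lower, where 45.0% of all probe sets were higher, and none was under that level. The smallest p there was that of Pf4, the platelet chemokine, at 0.60 (unadjusted p = 0.0520).

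Receptors were mostly too dim to follow. Of 23 chemokine receptor genes 21 were on the array and 8 were tested, and none had an unadjusted p under 0.05 in any of the 7 comparisons. Ccr2, the receptor of CCL2, was -0.27 in LXRα vehicle against GFP vehicle (unadjusted p = 0.104), and Cxcr2, the receptor of CXCL1, was -0.39 with T0901317 in GFP livers (unadjusted p = 0.123).

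Other adhesion molecules and leukocyte integrins were tested for 12 of 21 listed genes. Itgb2, the common β chain of leukocyte integrins and partner of ICAM1, was -1.26 in LXRα vehicle against GFP vehicle (SE 0.52, unadjusted p = 0.0451, limma adjusted p = 0.953), and Icam2, an endothelial ligand of LFA1, was -0.61 (unadjusted p = 0.0617). In that comparison 10 of the 12 were lower, with a median of -0.28 against 0.05 over all genes. With T0901317 in LXRα livers 3 of 12 were higher at an unadjusted p under 0.05, as 7.88% of all probe sets were, among them Selp, the P-selectin of platelets and endothelium (0.88, adjusted p = 0.293), and Cd44, a hyaluronan receptor (1.88, adjusted p = 0.331).

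NF-κB subunits and regulators beside Nfkbia were tested for 22 of 29 genes. With T0901317 in GFP livers 5 of the 22 were higher at an unadjusted p under 0.05 and none was lower, where 8.50% and 4.65% of all probe sets were, with a median of 0.14 against -0.02 over all genes. Nfkbiz, an inducible nuclear member of the IκB family, was at 1.12 (SE 0.25, limma adjusted p = 0.189), and Birc2, a ubiquitin ligase of the TNF receptor pathway, at 0.94 (adjusted p = 0.203). In LXRα livers 3 of 22 were higher (7.88% of all probe sets), with Birc2 at 0.79 (adjusted p = 0.259) and Ikbkb, a kinase of IκB, at 0.64 (adjusted p = 0.288). Averaged over the transgenes, Birc2 stood at 0.86 (adjusted p = 0.0711) and Nfkbiz at 0.87 (adjusted p = 0.0790), beside 0.87 for Nfkbia 1449731_s_at. These comparisons hold the arrays of high β-actin ratio, whose part in them was not tested for this list.

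For the 3 members with the widest range among probe sets above background on all arrays, the tested genes with the most similar profile over the 8 arrays were looked up. Ccl6 1417266_at, which ranged over 4.10 on the log2 scale, was most like Pla2g7 (r = 0.983), Tmsb4x (r = 0.966) and Arhgdib (r = 0.966). Pla2g7 encodes a lipoprotein-associated phospholipase made by macrophages. Cxcl1, with a range of 3.38, was most like Ulk1 (r = 0.980), Dpyd (r = 0.977) and Rsrp1 (r = 0.972). Vcam1 1448162_at, with a range of 2.86, was most like Tlcd4 (r = 0.975), Col4a1, a basement membrane collagen chain (r = 0.968), and Gusb (r = 0.965). These are the highest of the correlations with all tested genes over the 8 arrays, and they are given as a description with no test. The arrays differed in their β-actin ratios, from 2.08 to 36.3. Any effect of scaling or RNA quality on an array can be shared by the genes read on it.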

How the data were processed

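Total liver RNA was measured on 1 Affymetrix mouse array per sample, per the labels. The deposited values are intensities on a linear scale, judged from their range, with 1 value for each probe set on each array. How they were summarised and scaled is not given in the sources used here. No sample column was left unused.

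Of 22690 probe sets, 64 controls were left out. Symbols came from the platform annotation: 20380 probe sets had 1 symbol, 691 several and 1555 none. For 20351 of those with 1 symbol, the RefSeq symbol of the same gene identifier was used in its place. The symbols of the members were the same in both. Intensities were raised to a floor of 7.50 (20th percentile of positive values) and log2-transformed. Array medians differed by 0.141, under the tolerance of 0.2, so no scaling was added. The 15838 probe sets with a mean log2 above the 30th percentile entered limma 3.58.1 (R 4.3.3), in 1 fit of 4 group means (4 residual and 2.93 prior degrees of freedom, eBayes with intensity trend). Benjamini-Hochberg adjustment ran over all 15838 p-values, differences were called at an adjusted p under 0.05, and precision is limited by how few arrays there are. A probe set counted as near background on an array at or below the 90th percentile of the genes of other organs (46 of 50 listed genes were found). The steps were tested on simulated data.

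The members and lists were chosen with earlier results of these data known. Named genes are all members, genes from each list chosen as the called ones or else the 2 of smallest p in a comparison (not all are printed), and for 3 members the 3 most similar genes. Marker genes given as examples of a list, Cd163, Lcn2, S100a8 and S100a9 fall outside this rule and were chosen with their values known. A list gene was read by its brightest tested probe set. Alternatives were other floors, filters, scalings, variance models, thresholds and background limits, the replicate number as a block, the β-actin ratio as a covariate, the compared groups alone, and each array left out, whose lone partner was then assumed to vary like the other groups. Nothing states that the replicate numbers pair the samples. The deviations of same-numbered arrays correlated between -0.138 and 0.247, which does not show whether they shared a litter, day or batch.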

Additional observations from a re-analysis of the deposited data

Results flagged for a closer look

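For 2 of the 18 probe sets the T0901317 and vehicle arrays did not overlap in either transgene, but in opposite directions. Cxcl12 1417574_at was higher on both T0901317 arrays of GFP livers and lower on both of LXRα livers, and the T0901317 difference in LXRα minus that in GFP livers was -1.41 (SE 0.31, unadjusted p = 0.00290, limma adjusted p = 0.906). Ccl6 1420249_s_at was lower with T0901317 in GFP livers and higher in LXRα livers, with a difference of 2.30 between them (SE 0.58, unadjusted p = 0.00529, limma adjusted p = 0.957). Such an opposite pattern without overlap was seen in 464 of the 15838 tested probe sets (2.93%). Neither difference passed the threshold, and the groups of 2 arrays were too small for a search for single outlying arrays. By the second Cxcl12 probe set, 1448823_at, T0901317 gave -0.09 in LXRα livers with overlapping arrays, and the interaction was -0.68. By the second Ccl6 probe set, 1417266_at, T0901317 gave -0.56 in GFP livers with overlapping arrays, and the interaction was 2.60. The pattern without overlap was thus seen in 1 probe set of each gene.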

How the results depend on the processing

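The number of the 18 probe sets called at an adjusted p under 0.05 was 0 in each of the 7 comparisons under the main setting and under each alternative run, with one exception, Nfkbia 1449731_s_at for T0901317 averaged over the transgenes. It made the count 1 at a threshold of an adjusted p under 0.10, and leaving out 1 array gave counts from 0 to 1, with 1 without LXRα T0901317 replicate 1. With the replicate block the count of these probe sets called was 0 in each comparison. The numbers are shared labels only, so this block is no paired analysis. It gave 6 probe sets at an unadjusted p under 0.05 for LXRα vehicle against GFP vehicle, as without it. Of the 18 probe sets, 3 were near background on at least 1 array with the limit at the 90th or 95th percentile. After quantile normalization there were also 3, and with the limit at the 75th percentile 0. Of 2466 member differences under alternatives, 2376 kept their direction and their side of the threshold, 88 that were not called changed sign and 2 came to pass the threshold. Over all tested probe sets the counts of calls moved far more, from 90 for the averaged T0901317 difference to 4 to 738 under other settings and 0 to 1508 with 1 array left out. For T0901317 in LXRα livers they moved from 4 to 0 to 23 and 0 to 474, and for T0901317 in GFP livers from 0 to 0 to 10 and 0 to 43. For LXRα vehicle against GFP vehicle they moved from 1 to 0 to 11 and 1 to 33. The cause was not tested. Values near the background limit, those of Cxcl9, Ccl9, Ccl2 and Icam1 and the lowest value of Ccl6 1417266_at, are the least certain.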
